A study of Mus musculus with 8 samples.

Results

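The serpins are a large family of proteins named for their serine protease inhibitors, and every row of the deposited gene table whose symbol begins with Serpin was taken, apart from Serping1 and Serpinf1, which left 61 of the 23420 named genes. Most serpins present a reactive loop that a protease cleaves, after which the serpin folds around the enzyme and traps it. Clade A and the small clades C, D, E, F and I are mostly secreted and act on clotting, fibrinolysis and leukocyte proteases, whereas clade B serpins mostly stay inside cells, where they guard epithelia and leukocytes against cathepsins, granzymes and other proteases. Some members, such as maspin (Serpinb5) and the collagen chaperone Hsp47 (Serpinh1), have the fold without the inhibitory activity. The cornea is covered by a stratified epithelium renewed from stem cells in the limbus, the vascularized rim at its border with the conjunctiva and sclera.

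RNA was taken from corneal buttons (the central cornea) and from limbal rims of wild type C57BL/6J mice aged 8 weeks, and the tissue of several eyes was pooled before extraction. The limbal rim was cut by hand under a microscope. The sample labels list 4 samples of each tissue with numbers that are also used for sequencing lanes, but the table holds the values of 1 cornea library and 1 limbus library. There was therefore no spread between replicates and no test, and the intervals given below are exact Clopper-Pearson intervals at the 95% level on the log2 scale, which cover counting error only and treat reads as independent molecules, although reads copied in amplification are not.

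Reads on named genes numbered 26104317 for the cornea library and 21182025 for the limbus library. Normalized reads are reads divided by a size factor of the library, 1.03374 for the cornea and 0.967357 for the limbus, and ratios are normalized limbus reads over normalized cornea reads. A member was called higher in a tissue when its ratio was at least 2-fold and its interval did not reach equality. Of the 6 markers of the corneal epithelium 3 were called higher in the cornea and none in the limbus, among them keratin 12 (Krt12) with 1137735 cornea and 233324 limbus reads. Krt5 and Pax6 lay on the cornea side without a call, and Clu lay on the limbus side with 6544 and 11359 reads. Keratin 15 (Krt15), from the list of limbal and conjunctival epithelium, had 37738 and 353826 reads. The limbus library also held RNA of other tissues. All 6 skeletal muscle markers (82 cornea and 9704 limbus reads in sum), 5 of 6 blood vessel endothelium markers (242 and 2786) and all 6 smooth muscle and pericyte markers (329 and 2670) were called higher in it. Fewer cells of a type and less RNA per cell cannot be told apart in such tissue pieces.

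Of the 61 serpins, 28 had more than 3 reads in at least 1 library, 11 had 1 to 3 reads at most and 22 were listed at a mean of 0. Of these 28 measured members, 14 were called higher in the limbus, as were 19.1% of the 15572 genes of the table that passed that limit. Called higher in the cornea were 3 members (10.7%), against 8.26% of all genes. The remaining 11 members were called in neither direction. The median log2 ratio of the 28 members was 1.12, and that of all measured genes was 0.01. Scaling the libraries to their total reads instead adds 0.21 to every log2 ratio and leaves 15 members higher in the limbus (22.0% of all genes) and 1, Serpinb5, higher in the cornea (5.22% of all genes). Where a pair of read numbers is given below, the cornea comes first.

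**Figure D1:**
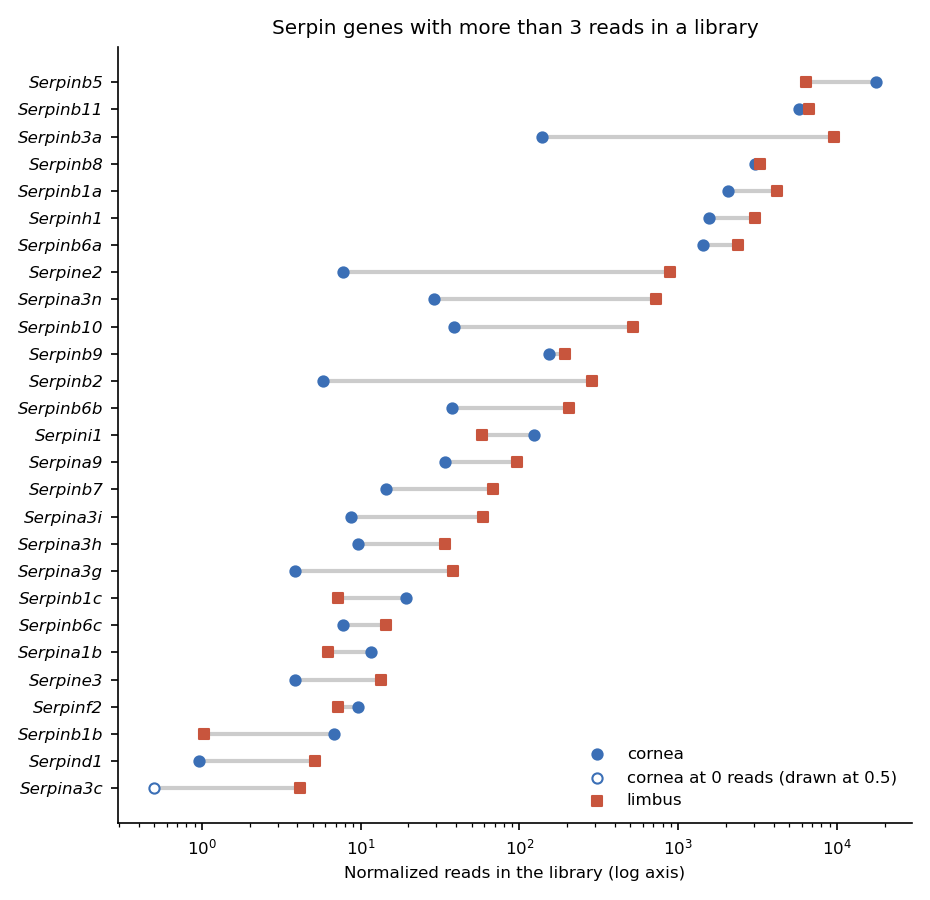
Normalized reads in the cornea library (blue circles) and the limbus library (red squares) for 27 of the 28 serpins with more than 3 reads in a library, on a log axis, ordered by their mean. Serpinb5 lies at 17621.4 for the cornea and 6362.7 for the limbus, whereas Serpinb3a lies at 139.3 and 9603.5. The open circle marks 0 reads.

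Serpinb5 and Serpinb3a, both clade B genes of one cluster on chromosome 1, were the members whose share of the serpin reads differed most between the libraries. Serpinb5 (maspin, an epithelial serpin without inhibitory activity, chr1:106861173-106883348 of GRCm38, plus strand) had 18216 cornea and 6155 limbus reads. It was 2.77-fold higher in the cornea, with a log2 ratio of -1.47 (-1.51 to -1.43). It took 54.6% of all serpin reads in the cornea library and 16.3% in the limbus library. Serpinb3a (a relative of the human squamous cell carcinoma antigens, which inhibit cathepsins, chr1:107045587-107052303, minus strand) had 144 cornea and 9290 limbus reads. It was 68.9-fold higher in the limbus, with a log2 ratio of 6.11 (5.87 to 6.35), and its share of the serpin reads was 0.432% for the cornea and 24.6% for the limbus. Of the 75-base stretches of its transcripts, 8.09% occur in other genes too, most often in Gm8080, so part of its reads could belong to another gene.

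The promoters of these genes are printed because neighbours in a single cluster differed in opposite directions. Each line gives the 250 bases before a RefSeq transcript start (GRCm38.p6), on the strand of the gene. The windows are chr1:106860925-106861174 for Serpinb5, chr1:107052304-107052553 for Serpinb3a, chr1:107511173-107511422 for Serpinb2, chr1:107589756-107590005 for Serpinb8 and chr1:79858666-79858915 for Serpine2. Serpinb2 had another listed start and is shown for the first. Serpine2, from outside the cluster, is shown for its ratio, and Serpinb8 as a neighbour that was called in neither direction. Capitals mark matches on either strand to 4 sets of letters that were chosen after the values were known. The TATA box was searched as TATAAA. The site of the AP-1 factors was searched as TGANTCA, which allows any base in the middle and is wider than the usual TGAGTCA or TGACTCA. The site of the STAT factors is a mirrored pair of half-sites and was searched as TTCNNNGAA. The GC box was searched as GGGCGG.
Serpinb5: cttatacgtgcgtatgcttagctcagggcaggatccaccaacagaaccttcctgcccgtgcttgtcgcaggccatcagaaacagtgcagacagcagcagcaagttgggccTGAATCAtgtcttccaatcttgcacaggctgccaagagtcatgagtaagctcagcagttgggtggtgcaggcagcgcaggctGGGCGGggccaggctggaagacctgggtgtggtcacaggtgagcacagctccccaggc
Serpinb3a: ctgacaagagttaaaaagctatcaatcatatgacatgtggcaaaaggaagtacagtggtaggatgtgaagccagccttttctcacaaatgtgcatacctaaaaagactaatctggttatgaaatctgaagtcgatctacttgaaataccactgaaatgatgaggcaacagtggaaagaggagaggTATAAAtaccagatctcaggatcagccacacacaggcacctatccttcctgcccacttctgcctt
Serpinb2: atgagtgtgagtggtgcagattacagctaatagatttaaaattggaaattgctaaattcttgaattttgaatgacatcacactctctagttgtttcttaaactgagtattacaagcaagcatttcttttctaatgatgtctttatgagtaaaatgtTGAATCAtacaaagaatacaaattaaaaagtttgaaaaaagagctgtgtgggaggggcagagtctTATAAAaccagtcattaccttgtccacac
Serpinb8: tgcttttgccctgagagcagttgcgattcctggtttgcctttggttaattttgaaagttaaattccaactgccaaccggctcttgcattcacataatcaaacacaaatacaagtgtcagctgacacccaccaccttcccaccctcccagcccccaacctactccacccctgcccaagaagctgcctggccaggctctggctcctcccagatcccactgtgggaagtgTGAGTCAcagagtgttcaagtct
Serpine2: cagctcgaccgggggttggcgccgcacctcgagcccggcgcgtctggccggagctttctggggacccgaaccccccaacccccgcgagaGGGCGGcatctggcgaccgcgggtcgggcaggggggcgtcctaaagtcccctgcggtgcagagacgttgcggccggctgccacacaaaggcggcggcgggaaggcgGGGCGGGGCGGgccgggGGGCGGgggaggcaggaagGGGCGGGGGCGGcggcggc

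The Serpinb5 window held an AP-1 match 140 bases and a GC box 58 bases before the start. The Serpinb3a window held a TATA box at 65 bases, and the Serpinb2 window held a TATA box at 29 and an AP-1 match at 94. In the Serpinb8 window the AP-1 match began 23 bases before the start. The Serpine2 window had 6 GC boxes and no TATA box, and the boxes that begin at 55 and 50 bases share 1 base. A RefSeq window was found for 51 of the 61 members. Of the 11 chromosome 1 clade B genes with a window, 7 held an AP-1 match, and of all 32851 mouse promoter windows of this length 6.75% did. The 7 were Serpinb5, Serpinb12, Serpinb11, Serpinb7, Serpinb2, Serpinb10 and Serpinb8, which include genes called higher in either tissue and genes called in neither. Only Serpinb7 and Serpinb8 held TGAGTCA, and the others held only TGAATCA or TGATTCA. No match to TGANTCA was found for the 14 chromosome 13 clade B genes with a window. The TATA letters were found in 7 of the 11 chromosome 1 genes, of which Serpinb3a, Serpinb3b, Serpinb3c and Serpinb3d are close copies, and in 12.4% of all windows. Serpinb12 counted only through matches at 220 and 201 bases, and Serpinb3d and Serpinb7 only through matches on the other strand. A gene counted when any of its windows held a match, whereas the shares are of single windows. GC boxes were in 7 of the 51 members with a window and in 32.7% of all windows. STAT letters were in 8 of the 51 members and in 7.02% of all windows. Serpinb2 was among the 8 through a match at 77 bases in its other window. These matches describe the letters and say nothing on binding.

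Clade B held 27 of the members, 12 on chromosome 1 and 15 on chromosome 13. On chromosome 1, from Serpinb5 to Serpinb8, the genes span 749.3 kb, and 7 of the 12 had more than 3 reads. Between the ends, Serpinb7, Serpinb2 and Serpinb10 stand side by side and were all called higher in the limbus. Serpinb2 (plasminogen activator inhibitor 2, an inhibitor of urokinase) had 6 cornea and 279 limbus reads, a ratio of 49.7-fold with a log2 value of 5.63 (4.49 to 7.09). Serpinb10, the mouse counterpart of bomapin and annotated as a polymorphic pseudogene, had 40 and 506 reads and was 13.5-fold higher. Serpinb7 (megsin) had 15 and 66 reads and was 4.70-fold higher. Serpinb2 and Serpinb10 share 291 exon bases on the same strand, so part of the reads could be counted for either.

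The genes on both sides of this run did not differ 2-fold. Serpinb11 (epipin), on the side of Serpinb3a, had 5966 cornea and 6487 limbus reads, with a log2 ratio of 0.22 (0.17 to 0.27). Its share of the serpin reads was 17.9% for the cornea and 17.2% for the limbus. Serpinb8, an inhibitor of furin, had 3152 and 3161 reads, with a log2 ratio of 0.10 (0.03 to 0.17). Both intervals lie above equality and well under 2-fold. Summed over the chromosome 1 genes the cornea had 27539 reads and the limbus 25947, which gives a log2 ratio of 0.01 (-0.01 to 0.03), although single members differed by up to 68.9-fold. Serpinb12, Serpinb3c and Serpinb3d had 0 cornea and 1 limbus reads, and Serpinb13 and Serpinb3b were listed at 0.

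On chromosome 13 the 15 genes span 1161 kb, and 7 had more than 3 reads. Serpinb1a, an inhibitor of the neutrophil proteases elastase and cathepsin G, had 2118 cornea and 4063 limbus reads. Its ratio of 2.05-fold, with a log2 value of 1.04 (0.96 to 1.11), lies just over the threshold, and the interval reaches below it. Serpinb6b had 39 and 199 reads and was 5.45-fold higher in the limbus, with a log2 ratio of 2.45 (1.95 to 2.98). Its relative Serpinb6a, an inhibitor of cathepsin G and of trypsin-like proteases, had 1481 and 2304 reads, a log2 ratio of 0.73 (0.64 to 0.83), under the threshold. Exons of Nqo2, Ripk1 and 1110046J04Rik lie opposite to those of Serpinb6a. Serpinb6c had 8 and 14 reads.

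Serpinb9, the inhibitor with which cells protect themselves against granzyme B, had 159 cornea and 187 limbus reads, with a log2 ratio of 0.33 (0.02 to 0.64). Serpinb1c, a close relative of Serpinb1a, had 20 and 7 reads and was called 2.67-fold higher in the cornea, with an interval of -2.90 to -0.12 that ends near equality. Serpinb1b had 7 cornea and 1 limbus reads, with an interval that spans equality (-8.21 to 0.25). Thus the 3 Serpinb1 genes lay on different sides, but those on the cornea side had at most 20 reads. Serpinb9b had 1 cornea and 0 limbus reads, and the other 7 genes of the cluster (Serpinb9c, Serpinb9d, Serpinb9e, Serpinb9f, Serpinb9g, Serpinb6d and Serpinb6e) were listed at 0. The sum over the chromosome 13 genes was 3833 cornea and 6775 limbus reads, a log2 ratio of 0.92 (0.86 to 0.97).

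**Figure D2:**
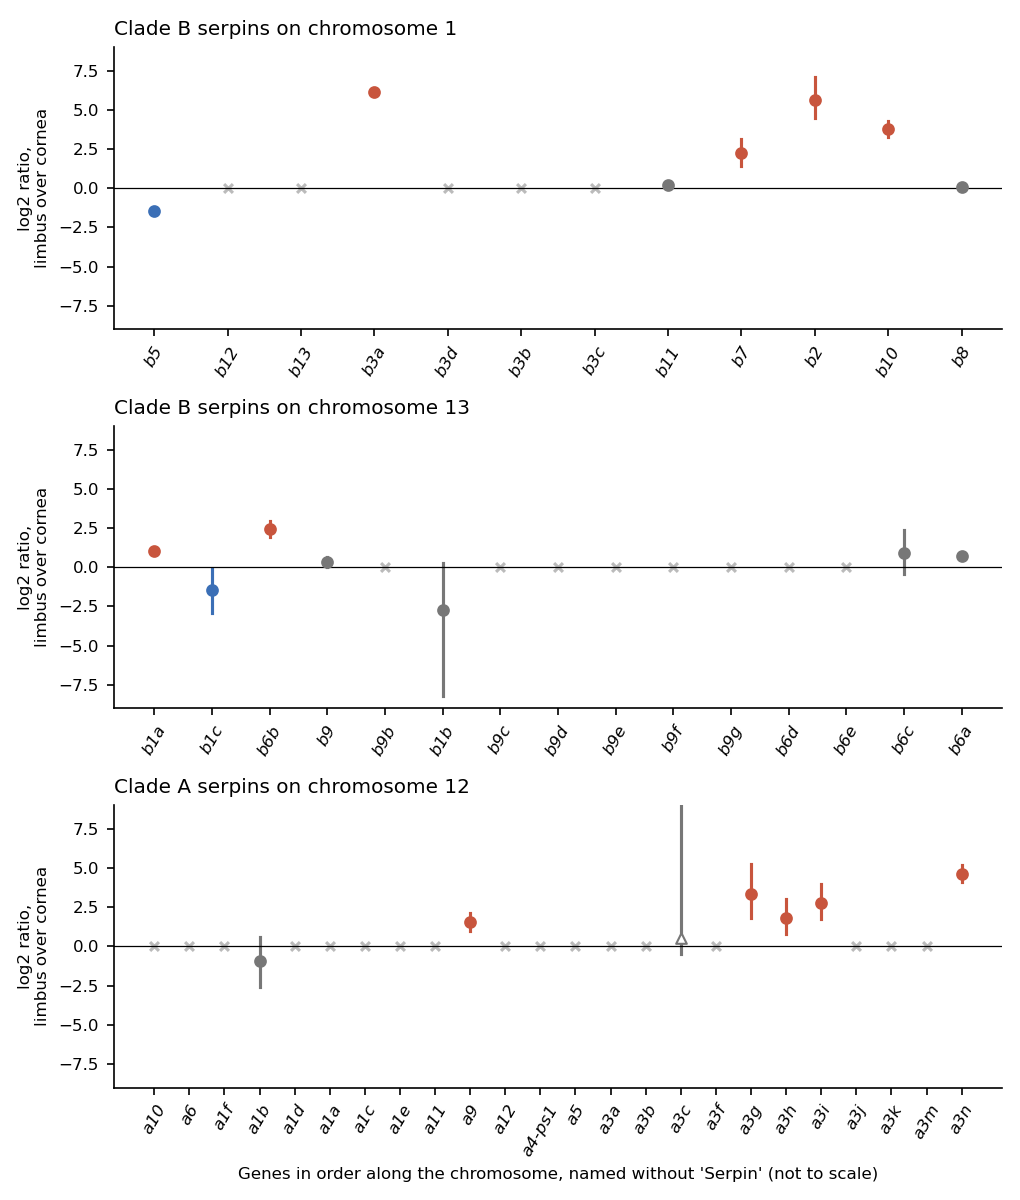
Log2 ratio of limbus over cornea for the clade B genes on chromosomes 1 and 13 and the clade A genes on chromosome 12, in their order along the chromosome and not to scale, with vertical bars for the 95% counting interval. Red marks genes called higher in the limbus, blue in the cornea and grey neither, crosses on the zero line stand for genes with at most 3 reads in both libraries and have no ratio, and the triangle is a lower bound. On chromosome 1 the ratios run from -1.47 at Serpinb5 to 6.11 at Serpinb3a and back to 0.10 at Serpinb8.

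Limbal and conjunctival epithelial markers moved in the direction of Serpinb3a, Serpinb2 and Serpinb7. Of the 8 genes on that list, 6 were called higher in the limbus and none in the cornea, and their reads summed to 144831 for the cornea and 720311 for the limbus. Keratin 4 (Krt4), a keratin of the conjunctiva, had 2138 and 71498 reads, while the goblet cell mucin Muc5ac had 1 read in each library. The part of these cells in the serpin ratios was not tested.

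Of clade E, Serpine2 and Serpine3 were called higher in the limbus. Serpine2 (protease nexin 1, a secreted inhibitor of thrombin and of the plasminogen activators, chr1:79794197-79861180, minus strand) had 8 cornea and 859 limbus reads. Its ratio of 115-fold, with a log2 value of 6.84 (5.86 to 8.06), was the highest of the 28 members. Serpine3 had 4 and 13 reads, and its interval of 0.10 to 3.87 ends near equality. Its exons also lie opposite to those of Ints6.

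Markers of other cell types were also higher in the limbus library. Of the 6 markers of scleral and other fibroblasts 4 were called higher in the limbus (4458 cornea and 8992 limbus reads in sum), and of the 5 Schwann cell markers 4 were (4531 and 7052). The collagen gene Col3a1 had 106 and 3124 reads, while the fibroblast markers Dpt (3102 and 1943) and Pdgfra (475 and 325) lay on the cornea side, and the vessel marker Pecam1 had 6 and 831. The part of these cells in the ratio of Serpine2 was not tested.

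Clade A had 25 members, 24 of them in a cluster that spans 799.5 kb on chromosome 12, and 7 had more than 3 reads. Of those 7, 5 were called higher in the limbus and none in the cornea, beside 19.1% and 8.26% of all measured genes. Serpina3n (a secreted, acute phase inhibitor of granzyme B and leukocyte elastase, chr12:104406729-104414329, plus strand) had 30 cornea and 698 limbus reads. It was 24.9-fold higher in the limbus, with a log2 ratio of 4.64 (4.11 to 5.21), and it held 1.85% of the serpin reads there against 0.0900% in the cornea. Its neighbours Serpina3g, Serpina3h and Serpina3i stood on the same side with far fewer reads. Serpina3g, an inhibitor of lysosomal cathepsins in leukocytes, had 4 and 37 reads and was 9.88-fold higher. Serpina3i had 9 and 57 reads and was 6.77-fold higher, and Serpina3h, annotated as a transcribed pseudogene, had 10 and 33 reads and was 3.53-fold higher.

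Serpina3g, Serpina3h and Serpina3i share 7.69%, 11.0% and 6.62% of their 75-base stretches with other genes, most often with each other. Reads could therefore move between them. For Serpina3n the share was 1.46%. Serpina9 (centerin, known from germinal centre B cells) had 35 cornea and 94 limbus reads and was 2.87-fold higher, with an interval of 0.95 to 2.12, and 72 of its exon bases lie in Gm28577. Serpina3c had 0 cornea and 4 limbus reads, and its interval starts at -0.50, below equality. Serpina1b, one of the mouse genes for the liver elastase inhibitor alpha-1-antitrypsin, had 12 and 6 reads with an interval of -2.60 to 0.62. Of its 75-base stretches, 19.0% occur in other genes, most often in its copy Serpina1a.

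The other clade A members had at most 3 reads. Serpina6 (corticosteroid-binding globulin) and Serpina10 (an inhibitor of clotting factor X) had 0 cornea and 1 limbus reads. Serpina1e had 3 reads in each library, Serpina3b and Serpina3f had 1 in each, and Serpina1d had 1 cornea and 0 limbus reads. Serpina1a, Serpina1c, Serpina1f, Serpina3a, Serpina3j, Serpina3k, Serpina3m, Serpina4-ps1, Serpina5, Serpina7, Serpina11 and Serpina12 were listed at 0. A count of 0 allows up to 3 reads, or 0.115 RPM (reads scaled by the reads on all named genes) for the cornea library and 0.142 for the limbus library. Of the 7 liver markers 2, Alb and Fgb, were listed at 0, and 2 had more than 3 reads, both on the limbus side. They were Ttr, called with 72 and 640 reads, and Apoh with 2 and 7. The list summed to 75 and 653 reads, most of them on Ttr, so the sums describe that gene more than the list. Of the 7 leukocyte markers 4 were called higher in the limbus (6773 cornea and 11142 limbus reads in sum), and their part in the Serpina3 ratios was not tested.

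The other clades had 1 or 2 members each. Serpinh1 (Hsp47, the chaperone that procollagen needs in the endoplasmic reticulum, chr7:99345376-99353239, minus strand) had 1621 cornea and 2944 limbus reads. Its log2 ratio of 0.96 (0.87 to 1.04) is 1.94-fold, just under the threshold. Serpini1 (neuroserpin, an inhibitor of tissue plasminogen activator in neurons, chr3:75557547-75643495, plus strand) had 128 and 56 reads and was called 2.14-fold higher in the cornea, with a log2 ratio of -1.10 (-1.58 to -0.63). Serpinf2 (alpha-2-antiplasmin) had 10 and 7 reads and Serpind1 (heparin cofactor II) had 1 and 5, and both intervals span equality. Serpinc1 (antithrombin) had 0 and 1 read, and Serpini2 was listed at 0.

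**Figure D3:**
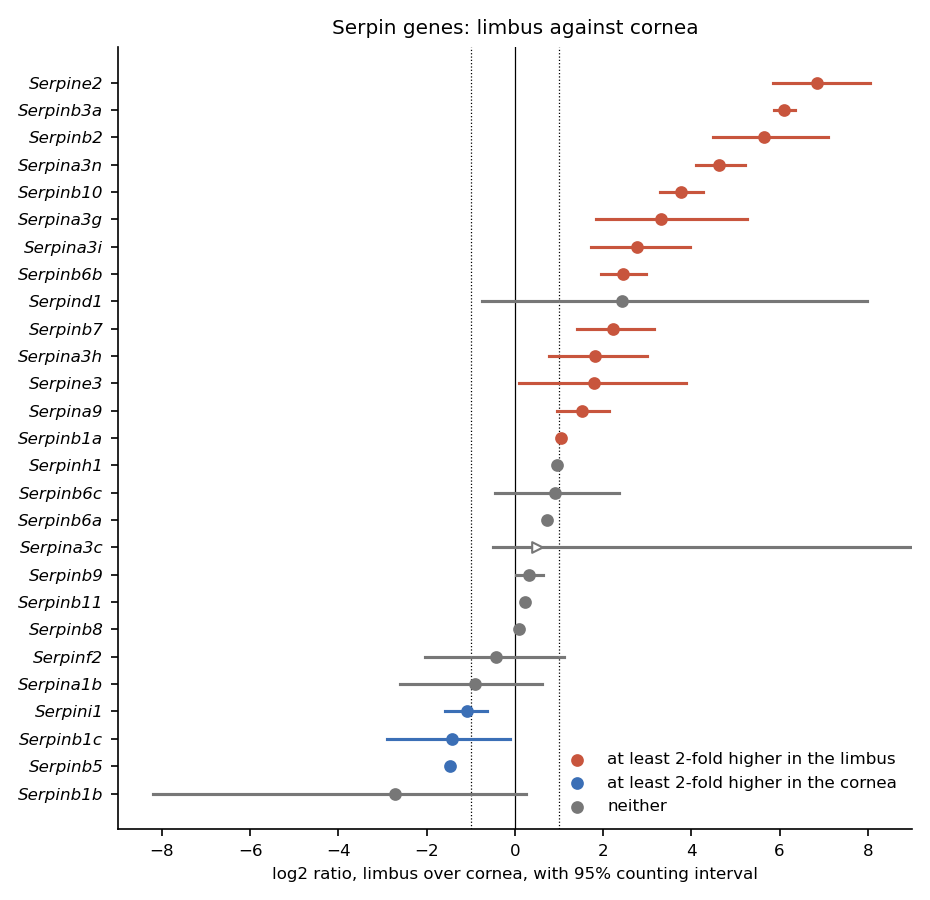
Log2 ratio of limbus over cornea for 27 of the 28 serpins with more than 3 reads in a library, with horizontal bars for the 95% counting interval and dotted lines at 2-fold in either direction. Red marks members called higher in the limbus (13 of the 14), blue the 3 called higher in the cornea and grey the other 11, and the open triangle is a lower bound. The highest value is 6.84 for Serpine2, and the widest intervals belong to members with few reads, such as Serpinb1b and Serpind1.

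Levels of different genes were compared as RPM divided by the length of the longest transcript in kb. On this scale the cornea was led by Serpinb5 (261), Serpinb11 (110) and Serpinb1a (42.3), followed by Serpinh1 (27.3), Serpinb8 (26.4) and Serpinb6a (25.9), and Serpinb3a stood at place 7 with 3.41. The limbus was led by Serpinb3a (271), followed by Serpinb11 (147), Serpinb5 (109) and Serpinb1a (100.0). Serpinh1 (61.1), Serpinb6a (49.6) and Serpinb8 (32.6) came next, and Serpina3n (16.0) and then Serpine2 were the first members outside clades B and H. The same 6 genes other than Serpinb3a thus made up the top of both lists. Serpine2 was at place 25 in the cornea and place 9 in the limbus, and Serpinb2 was at places 23 and 11.

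The serpins together had 33337 cornea and 37730 limbus reads, or 1277 and 1781 RPM. The log2 ratio of the sums was 0.27 (0.25 to 0.30) and rests on 2 genes. It is 1.16 without Serpinb5 and -0.13 without Serpinb3a, which turns its direction. Clade B made up 31372 of the cornea and 32722 of the limbus reads. Clade A was small but unlike between the tissues, at 106 and 936 reads (log2 ratio 3.24, 2.95 to 3.54). Serpina3n alone had 30 and 698 of these reads.

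**Figure D4:**
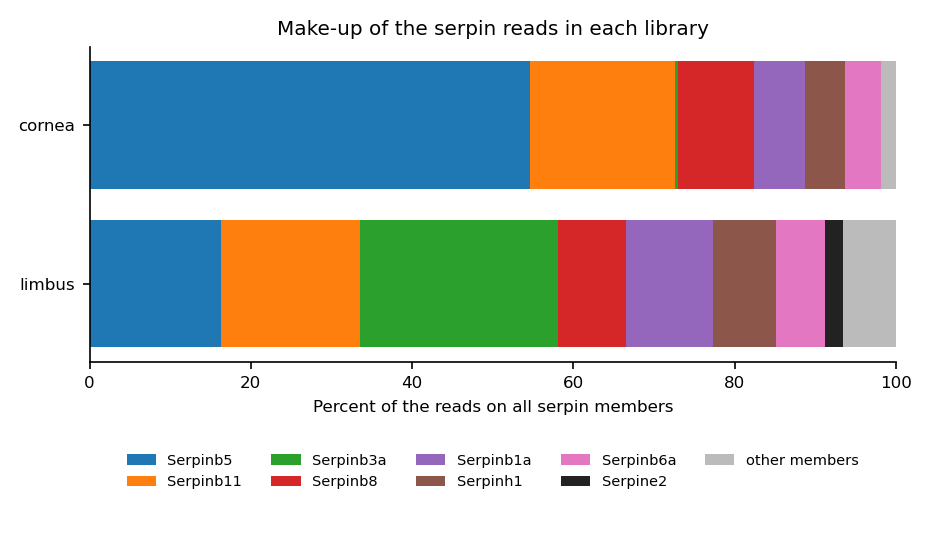
Percent of the reads on all 61 serpins that fell on each of the 8 members with the highest mean, and on all others together, in the cornea library (top bar) and the limbus library (bottom bar). Serpinb5 takes 54.6% of the cornea bar and 16.3% of the limbus bar, and Serpinb3a takes 0.432% and 24.6%.

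The proteases, receptors and partners on which serpins act were described from 6 lists of 138 genes in all, of which 136 were found in the table, 6 of them by an older symbol. Across the lists 107 genes had more than 3 reads, 36 (33.6%) were called for the limbus and 4 (3.74%) for the cornea, against 19.1% and 8.26% of all measured genes, and the median log2 ratio was 0.51. In plasminogen activation and clotting, 5 of 15 measured genes (33.3%) were called higher in the limbus and none in the cornea, with a median of 0.31. Both plasminogen activators, which Serpine2 inhibits, were present in both libraries and were not called. Plat had 750 cornea and 1152 limbus reads (log2 ratio 0.71), and Plau had 585 and 493 (-0.15). The urokinase receptor Plaur had 14 and 52 reads and was 3.97-fold higher in the limbus.

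Vitronectin (Vtn), an adhesive glycoprotein of plasma and matrix, had 3 and 112 reads, a ratio of 39.9-fold with an interval of 3.73 to 7.62. F13a1, the clot-crosslinking transglutaminase, had 9 and 97 reads, the protein C cofactor Pros1 had 70 and 448, and the thrombin receptor thrombomodulin (Thbd) had 95 and 415. Plasminogen (Plg) was listed at 0 and prothrombin (F2) had 0 cornea and 1 limbus reads. Anxa2 had the most reads of this list, 95946 and 111081.

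Among 28 measured epithelial and kallikrein serine proteases, 5 were called for the limbus and 3 for the cornea, with a median of 0.24. These are 17.9% and 10.7% of the list, near the 19.1% and 8.26% of all measured genes. The 3 were membrane-anchored proteases of the Tmprss11 group. Tmprss11d had 12009 cornea and 1231 limbus reads, Tmprss11e had 4912 and 963, and Tmprss11a, with the most reads of the list, had 37535 and 9062. Klk13 had 0 and 81 reads, at least 28.8-fold higher in the limbus, Hpn (hepsin) had 5 and 88, and Htra3 had 90 and 359. Of the kallikreins, Klk5 was listed at 0, Klk7 had 3 and 2 reads, Klk8 had 150 and 224, Klk10 had 585 and 463 and Klk11 had 878 and 989. With libraries scaled to total reads, 8 genes of the list were called higher in the limbus, beside 22.0% of all measured genes.

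Of 11 measured leukocyte granule proteases and related caspases, 8 (72.7%) were called higher in the limbus and none in the cornea, with a median of 4.08. The shares of all measured genes were 19.1% and 8.26%. Among the highest were 2 mast cell proteases, the chymase Cma1 with 1 cornea and 76 limbus reads and Mcpt4 with 0 and 139. The caspase Casp4 had 2 and 79. The lowest called ratios were those of Tpsab1 (0 and 6 reads), Gzma (2 and 11) and the inflammatory caspase Casp1 (7 and 111). The targets of Serpinb9, Serpinb1a and Serpina3n, Gzmb, Elane and Ctsg, were listed at 0. Casp8 had the most reads, 1292 and 1269.

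The inhibitors outside the serpin family gave 9 of 18 measured genes (50%) called for the limbus and 1 (5.56%) for the cornea, with a median of 0.85. The shares of all measured genes were 19.1% and 8.26%. Pi16 had 1 and 604 reads, Wfdc18 had 2 and 594 and Wfdc12 had 1 and 23, all higher in the limbus. Pi15 (0 and 14 reads) and Wfdc2 (1583 and 3034) were called with lower ratios. The protease trap alpha-2-macroglobulin (A2m) had the most reads of the list, 23888 for the cornea and 7030 for the limbus, and was 3.18-fold higher in the cornea.

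Among 14 measured serpin receptors and cofactors 4 (28.6%) were called higher in the limbus and none in the cornea, with a median of 0.26. Of all measured genes 19.1% and 8.26% were called, and of the 14 genes 7 lay on each side of equality. The receptor Lrp1, which clears serpin-protease complexes, had 3499 and 4818 reads, a log2 ratio of 0.56. Besides Vtn, Lrp2 (1 and 14 reads), the heparan sulfate proteoglycan perlecan (Hspg2, 510 and 2003) and biglycan (Bgn, 4499 and 11567) were called. Decorin (Dcn) had the most reads, 30813 and 44833. The 22 genes listed as partners of Hsp47 were mostly collagen-modifying enzymes and chaperones or transport factors of the endoplasmic reticulum. Of them 6 (27.3%, beside 19.1% of all measured genes) were called higher in the limbus and none in the cornea, with a median of 0.20. The list also holds Leprotl1, which is not known as a collagen chaperone or modifying enzyme and was not called. The prolyl hydroxylase subunit P4ha3 had 0 and 22 reads and the prolyl 3-hydroxylases listed as Leprel2 and Lepre1 had 219 and 814 and 72 and 254. Fkbp10 had 181 and 555 reads, P4ha2 had 138 and 352 and Plod2 had 43 and 86. Calr had the most reads, 14587 and 16287.

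**Figure D5:**
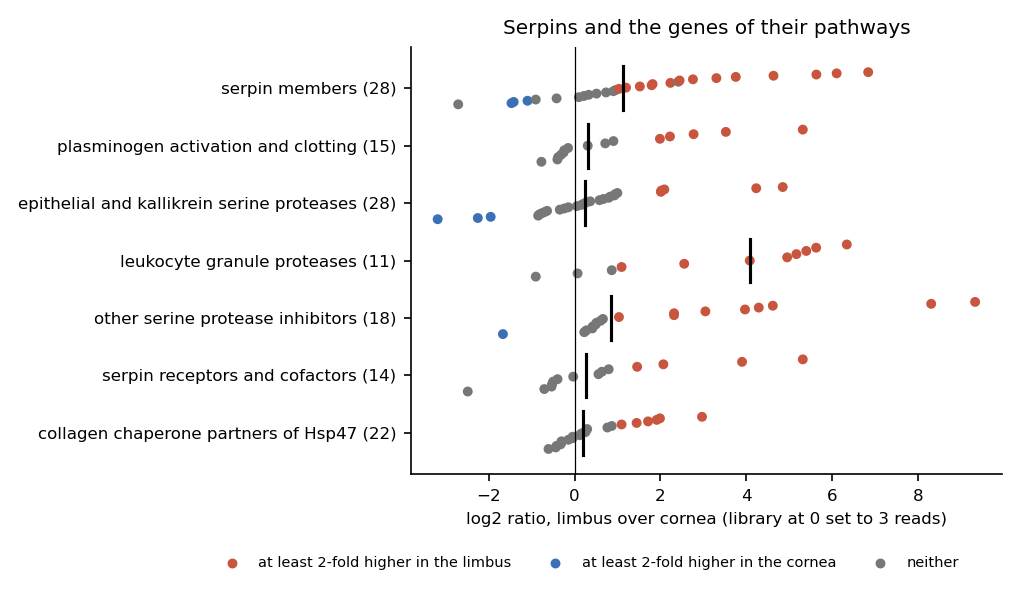
Log2 ratio of limbus over cornea for the 28 measured serpins and for the measured genes of the 6 lists of proteases, inhibitors, receptors and Hsp47 partners, with each gene a point, the number of genes in brackets and the black bar at the median. Red marks genes called higher in the limbus, blue in the cornea and grey neither, and a library at 0 reads was set to 3. The medians run from 0.20 for the list of Hsp47 partners to 4.08 for the leukocyte granule proteases, and that of the serpins is 1.12.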

How the data were processed

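Total RNA of pooled corneal buttons and limbal rims was sequenced as paired 75-base reads and, by the study's methods, mapped to GRCm38 (mm10) in CLC Genomics Workbench. Whether counting used the strand is not given in the sources used here. The authors deposited 1 table of 40904 rows, of which 17484 name no gene and stayed out. It holds, per gene, the mean normalized signal of both tissues, and the authors also deposited a fold change and its standard error on the log2 scale, with p-values. Each mean equals whole reads of 1 cornea and 1 limbus library, 109 cornea reads being worth 102 limbus reads. Where several pairs of reads give the same mean, the pair that best met the deposited fold change and standard error was taken, so the reads here are derived values. None of the authors' comparison values is printed or compared, and their p-values were not used. All 39 members above 0 met the standard error to within 0.000166, and the mean of 24 allows a single pair. The rule for near-ties among other genes was set after values were seen. On simulated data, reads were found exactly for 17046 of 17049 genes, and the direction for all of 200 changed genes.

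A library at 0 reads was set to 3. No fold was formed with at most 3 reads in both libraries. The named genes are the members, and from each list the called genes with the 3 highest and 3 lowest ratios, the gene with the most reads and 13 targets or receptors of serpins. Klk10, Klk11, Leprotl1 and the single markers were picked with their values in view. The members and lists were chosen with earlier results of these data known. Values of 1 member, which stays in the counts, and of 1 marker gene are not reported here. Other scalings, thresholds and filters were tried. Positions and lengths are from GENCODE M21 (GRCm38) and promoters from RefSeq. Calculations used Python 3.11.15, NumPy 2.4.6, pandas 2.3.3, SciPy 1.17.1 and Matplotlib 3.10.9.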

Additional observations from a re-analysis of the deposited data

How the results depend on the processing

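The count of serpins called higher in the limbus was 14, beside 19.1% of all measured genes. It was 15 with libraries scaled to total reads (22.0% of all genes) and 14 after a trimmed mean of M-values (19.4%). It was 16 at 1.5-fold, 9 at 4-fold, 9 with a mean of at least 50 and 6 among members whose mean allows a single pair of reads. Of the 3 called higher in the cornea (8.26% of all genes), 1 was left with total reads (5.22%), 0 at 4-fold and 1 among members with a single pair. Filters leave fewer members, and the share of all genes is not given for the thresholds and filters of this section, so those counts lack a background. The median of the serpins stayed between 0.90 and 1.52 under all settings run. The log2 ratio of the summed serpin reads was 0.27. It moved to 0.48 with total reads, 0.22 without members that overlap another gene, 1.42 among members with a single pair and 1.16 without Serpinb5. Alternatives chosen after seeing the data left out Serpinb3a, which gave -0.13, and the 20 members with over 5% of their 75-base stretches in another gene, which gave -0.17 and left 8 members higher in the limbus. The genes of the 6 lists called higher in the limbus were 36 of 107 (33.6%), and 21 with a mean of at least 50, which also leaves fewer genes. Leaving out members by protein identity was not run. No paired analysis was possible because each tissue had 1 library, for which leaving out a replicate was not possible either. Members with under about 10 reads in both libraries are limited by depth.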
